A study of Mus musculus with 9 samples.

Results

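The gene expression profile of the mouse cornea was compared between the embryonic stages E16.5 and E14.5 (days after mating), with 3 samples at each stage. These are 6 of the 9 samples of the series, chosen by the stage in their titles, and the other 3 are E10.5 periocular neural crest (pNC), whose levels are given only as a reference. All embryos were untreated wild-type mice of strain C57BL/6 with no transgene. Each sample was a pool of dissected corneas, with more corneas per pool at E14.5 than at E16.5. The E14.5 corneas were freed from the mesenchyme around them, and the E16.5 corneas were cut at the limbus, the rim where the cornea meets the conjunctiva. Poly(A) RNA of the whole tissue was sequenced, so each value mixes all the cells of the dissected piece. In such bulk samples, fewer cells of a type and less RNA per cell cannot be told apart.

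The cornea is built from an outer epithelium that comes from the surface ectoderm, and from a stroma and an inner endothelium that come from the neural crest. Around the stages compared here, the crest cells that have entered the corneal space turn into keratocytes, which lay down the collagen and proteoglycan of the transparent stroma. The epithelium that comes from the surface ectoderm differentiates over the same time. Periocular vessels stop at the limbus, while sensory nerves grow in. The comparison asks which genes differed between the stages as the newly formed cornea matured. The way the piece was cut and the size of the pools differed with the stage. Their effects and those of maturation cannot be told apart here. A defining marker of each layer of the tissue was present at both stages. The epithelial marker Krt12 was close to absent in E14.5 replicates 2 and 3, and the endothelial marker Slc4a11 was low in every cornea sample. Their values are given below. Pax6, the eye master regulator, was listed at 146, 88.8 and 88.8 FPKM at E14.5 and 237, 186 and 189 FPKM at E16.5, with values given here and below in the order of replicates 1, 2 and 3. FPKM are fragments scaled by transcript length and library size, a level per length, so that levels of different genes can be set side by side. The keratocyte proteoglycan lumican (Lum) was listed at 1470, 750.1 and 779 FPKM at E14.5 and 1594, 1568 and 1549 FPKM at E16.5, and the endothelial collagen Col8a2 at 174, 176 and 227 FPKM at E14.5 and 130.5, 169.8 and 171 FPKM at E16.5.

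Each cornea library held between 8745161 and 8938315 expected counts. The E14.5 samples varied more among themselves than the E16.5 samples, with a biological coefficient of variation of 19.89% against 7.782%, and E14.5 replicate 1 stood apart. Counts of E14.5 replicates 2 and 3 differed by a chi-square per degree of freedom of 9.046, and those of replicate 1 differed from them by 26.32 and 26.17. Its place was measured on a scale where 0 is the mean of the other E14.5 samples and 1 is the mean of the E16.5 samples, on log2(CPM + 1). The genes used were those called in a fit without it whose means on this scale differ by at least 1, which left 1935. The median position of replicate 1 was 0.486 (quartiles 0.340 and 0.629), and 97.4% of the genes lay above 0. Placed in the same way, each against the mean of its own other E14.5 samples, replicate 1 included, replicate 2 lay at −0.295 (1091 genes) and replicate 3 at −0.171 (1146 genes). Because replicate 1 enters both of these means, values below 0 follow in part from its own position and are no separate measure. The position of replicate 1 was not the same for all groups of genes. Its median was 0.85 over 5 mast cell genes, 0.70 over 15 periocular crest transcription factors and 0.67 over 8 keratocyte genes, but 0.28 over 42 mitosis genes, 0.22 over 17 fibrillar collagens and 0.06 over 14 neutrophil granule genes. Its part in each result was therefore measured by repeating the fit without it. Among the E16.5 samples, replicate 1 held more keratin RNA (summed level 7948 FPKM, against 5382 and 5488) and less fibrillar collagen RNA (12140 FPKM, against 17250 and 15120) than replicates 2 and 3.

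**Figure D1:**
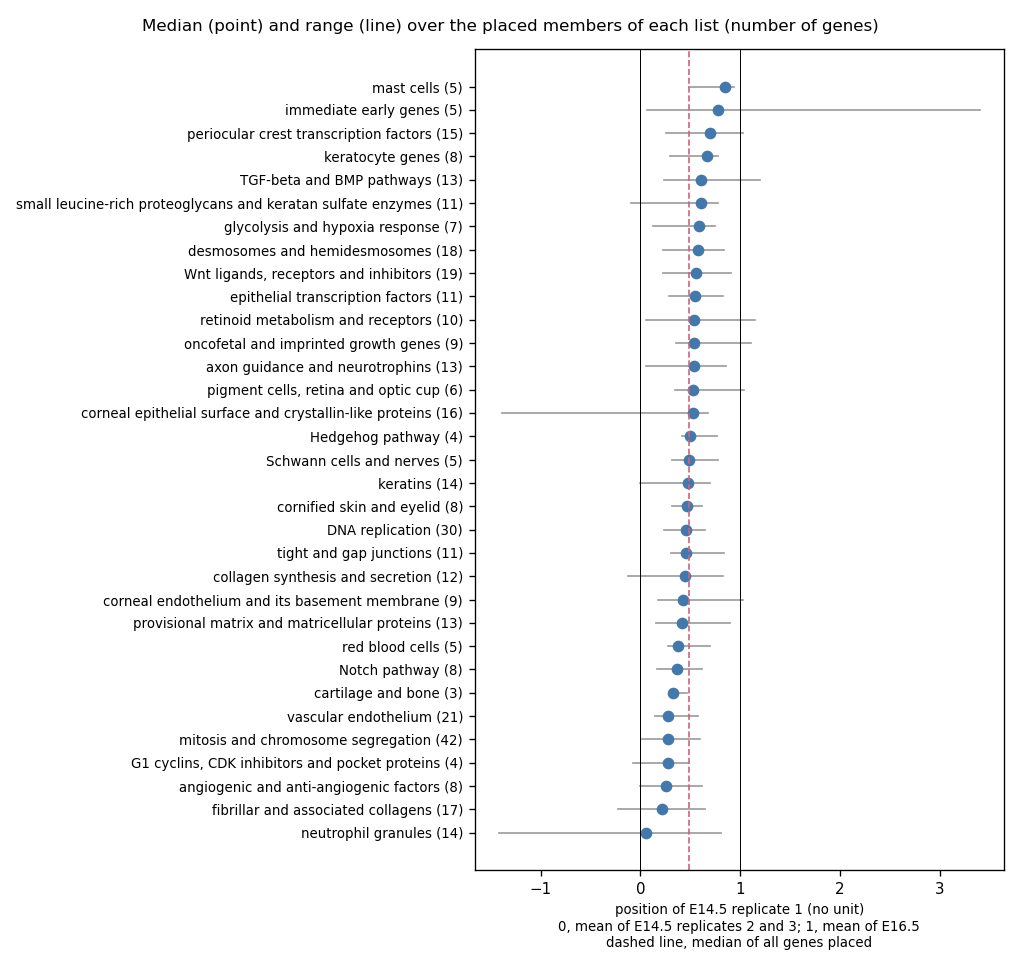
Position of E14.5 replicate 1 for each gene list, as a point for the median and a line for the lowest and highest gene; the x axis has no unit, with 0 at the mean of E14.5 replicates 2 and 3 and 1 at the mean of E16.5. The medians run from 0.06 for the neutrophil granule genes to 0.85 for the mast cell genes, around 0.486 for all 1935 genes placed (dashed line).

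Of 14771 genes tested with edgeR's quasi-likelihood test, 924 were higher at E16.5 (6.26%) and 808 were lower (5.47%), at a Benjamini-Hochberg adjusted p under 0.05 and a change of at least 2-fold (1 on the log2 scale). Below, "rose" and "fell" are used only of genes that passed both limits, the size of a rise or fall is on the log2 scale, and a value in parentheses after a gene is its log2 fold change. Calls within a list below are to be read against the 6.26% and 5.47% of all tested genes. Samples of the stages did not overlap in FPKM for 1677 of the 1732 called genes, against 53.2% of all tested genes. A change of at least 8-fold was fitted for 73 of the rising and 66 of the falling genes. The median log2 fold change of all tested genes was −0.024. Scaling by library totals in place of TMM moved that median by −0.163 and gave 731 rising and 1099 falling genes, so that rising genes made up 39.9% of calls against 53.3%. Without E14.5 replicate 1, 1307 genes rose and 1056 fell, which included 916 of the 924 and 790 of the 808 and none in the opposite direction. Among the 131 genes followed through each alternative, those described below whose call was lost when some other cornea sample was left out were Aqp1, Car2, Col18a1, Crabp1, Efnb3, Lcn2, Notch1, Pcna, Pfkp and Spp1, besides Aldh1a1, Cpa3, Kera and Pax6, whose values are given with them. Calls of the other genes named below were not followed singly. Where the count of a list drops with a sample left out, genes named from that list may have lost their call.

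**Figure D2:**
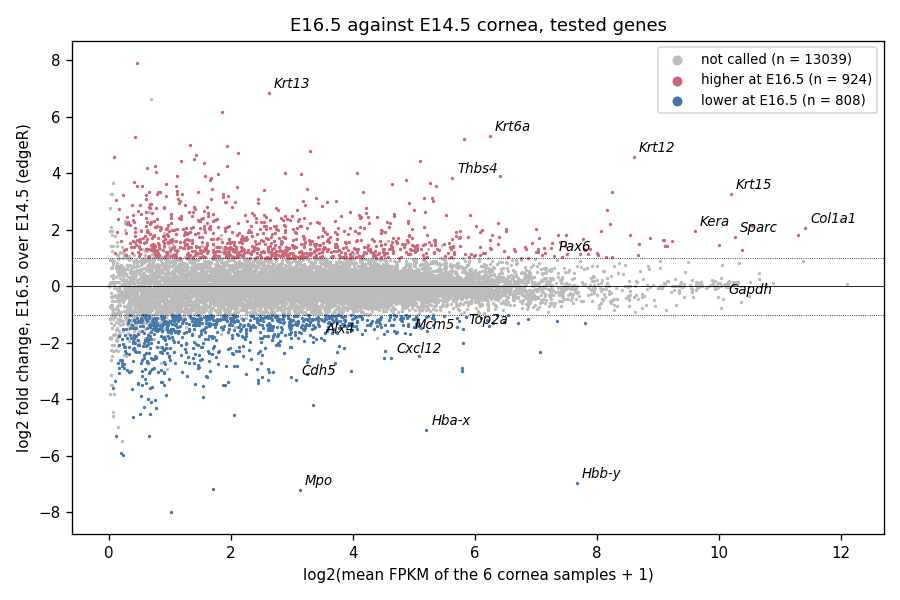
Log2 fold change of E16.5 over E14.5 (y axis) against log2(mean FPKM of the 6 cornea samples + 1) (x axis) for the 14771 tested genes; red points are the 924 that rose, blue points the 808 that fell and grey points the rest, with dotted lines at a 2-fold change. Keratins and collagens lie among the most abundant rising genes, and embryonic globins, Mpo and vascular genes such as Cdh5 among those with the largest falls.

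The keratins, the filament proteins of epithelial cells, rose. Of 17 tested keratins, 12 rose (70.6%, against 6.26% of all tested genes) and none fell, with a median log2 fold change of 2.15. Without E14.5 replicate 1, 14 rose and the median was 2.80. Krt12, the keratin specific to corneal epithelium, lies at chr11:99415664-99422593 (GRCm38). It was listed at 102, 0.62 and 2.06 FPKM at E14.5 and 989.7, 653 and 592 FPKM at E16.5. It was close to absent in E14.5 replicates 2 and 3, present in replicate 1, and higher in every E16.5 sample (log2 fold change 4.60 ± 1.24 (SE), adjusted p = 0.0156); without replicate 1 the log2 fold change was 9.26. Krt5, a keratin of basal epithelial cells at chr15:101707069-101712905, was the most abundant of the list, at 1042, 343 and 416 FPKM at E14.5 and 2891, 2074 and 2165 FPKM at E16.5. The stages did not overlap (log2 fold change 2.15 ± 0.36 (SE), adjusted p = 0.00171). Its filament partner Krt14 was listed at 209, 14.9 and 29.1 FPKM at E14.5 and 574, 447 and 451 FPKM at E16.5, again with replicate 1 the highest of the E14.5 samples (log2 fold change 2.71). Krt15, another basal keratin, rose by 3.29. Krt6a, known from stratified and wounded epithelia, went from 9.23, 1.16 and 1.67 to 214, 97.3 and 125 FPKM (log2 fold change 5.34 ± 0.61 (SE), adjusted p = 4.36e-04), although Krt6a and Krt6b are near-identical copies whose reads may be split. Krt13, a keratin of non-cornified stratified epithelia, was at 0.09, 0 and 0.17 FPKM at E14.5 and at 17.4, 6.45 and 6.85 FPKM at E16.5 (adjusted p = 5.73e-04). Among keratins known from simple epithelia, Krt19 rose by 1.71, Krt8 lay at the 2-fold limit with a log2 fold change of 1.0 and was not called, and Krt18 was not called at 0.13.

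**Figure D3:**
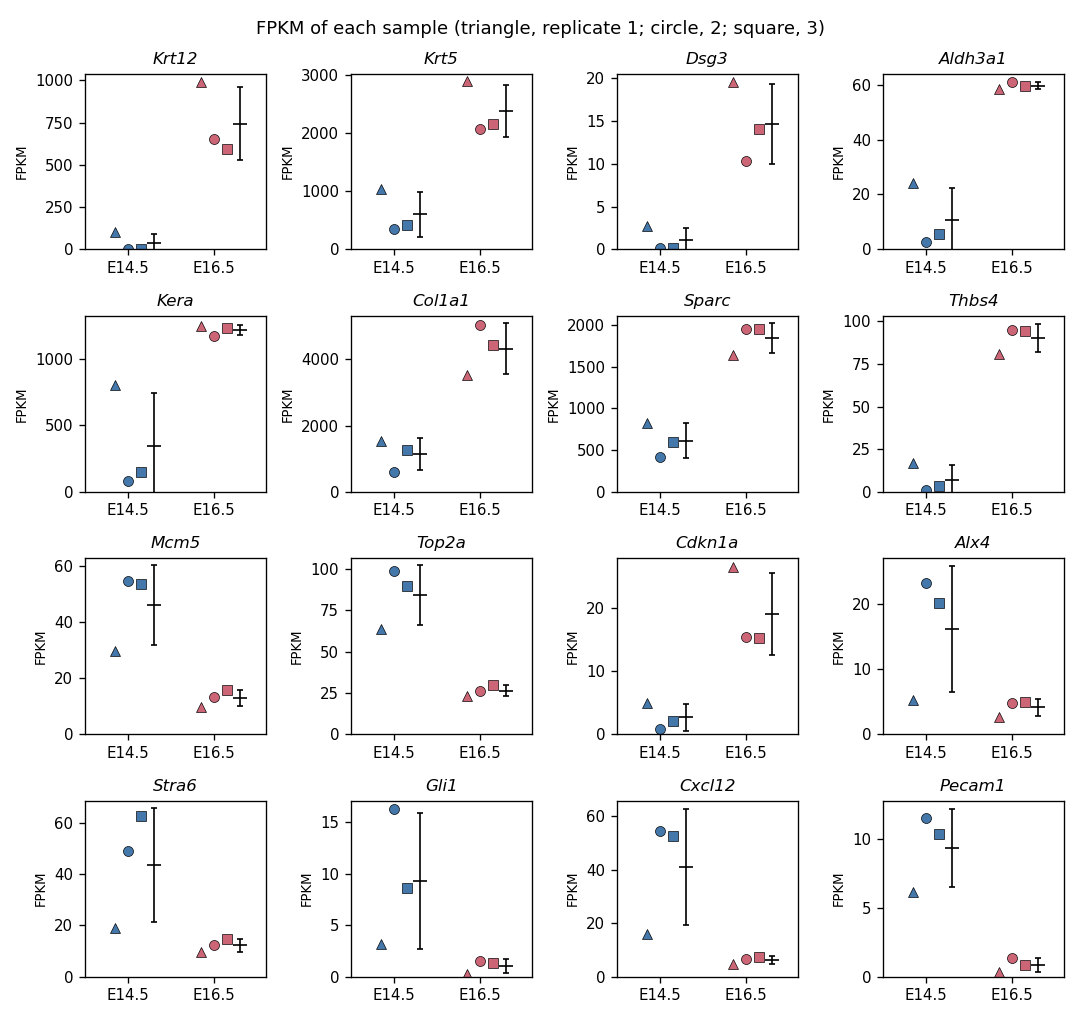
FPKM of 16 genes in each cornea sample (y axes, linear from 0), with E14.5 in blue and E16.5 in red; triangles, circles and squares are replicates 1, 2 and 3, and the black bars are mean ± SD of 3 samples, clipped at 0. For every gene shown the stages do not overlap, and E14.5 replicate 1 is the E14.5 sample nearest to E16.5.

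Transcription factors that act in surface epithelia rose in part. Of 25 tested, 10 rose and none fell (12 without E14.5 replicate 1), with a median of 0.86. Sox15, an HMG-box factor, was at 0.80, 0 and 0.10 FPKM at E14.5 and 7.04, 4.67 and 4.26 FPKM at E16.5, so that 2 of the 3 E14.5 samples were near 0 (adjusted p = 8.88e-04). Ehf, an Ets factor of stratified epithelia, was at 4.18, 1.06 and 1.24 FPKM at E14.5 and 19.6, 15.2 and 15.8 FPKM at E16.5 (log2 fold change 3.13 ± 0.39 (SE), adjusted p = 5.69e-04). The Grainyhead-like factors Grhl1 and Grhl3, which act in epidermal barrier formation, rose by 2.88 and 1.28, and Klf5, Elf3 and Ovol1 by 2.10, 2.08 and 2.15. Pax6 rose just past the 2-fold limit (log2 fold change 1.08 ± 0.30 (SE), adjusted p = 0.0172), and was under it with library totals (0.92) or without E14.5 replicate 2 (0.95), E14.5 replicate 3 (0.97) or E16.5 replicate 1 (0.97). Other factors of the list did not pass. Trp63, required for stratified epithelia, had a log2 fold change of 0.76, Klf4 one of 0.86 and Tfap2a one of 0.15.

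Components of desmosomes, which join epithelial cells, and of hemidesmosomes, which anchor them to the basement membrane, rose in 16 of 24 tested genes and fell in none (18 without E14.5 replicate 1), with a median of 1.44. Pkp1, a desmosomal plaque protein, was at 17.5, 1.83 and 1.83 FPKM at E14.5 and 91.5, 63.4 and 63.8 FPKM at E16.5. All E16.5 samples were higher (log2 fold change 3.54 ± 0.69 (SE), adjusted p = 0.00346). The desmosomal cadherin Dsg3 was at 2.78, 0.17 and 0.19 FPKM at E14.5 and 19.6, 10.3 and 14.04 FPKM at E16.5 (log2 fold change 3.97), and Dsg1a rose by 2.47. The cornified-envelope linkers Ppl and Evpl rose by 2.23 and 1.73. On the basal side, the integrin Itgb4 rose by 1.58, the laminin chain Lama3 by 1.70 and Col17a1 by 1.37. Col7a1, the collagen of anchoring fibrils at chr9:108953586-108984875, was at 139, 61.1 and 75.04 FPKM at E14.5 and 249, 248 and 231 FPKM at E16.5 (log2 fold change 1.57 ± 0.24 (SE), adjusted p = 0.00123). The cadherin Dsc3 went against the list in its values, at 14.46, 43.0 and 36.7 FPKM at E14.5 and 23.5, 17.0 and 17.5 FPKM at E16.5 (log2 fold change −0.54) that was not called.

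Tight and gap junction genes rose in 9 of 24 and fell in 1 (11 and 1 without E14.5 replicate 1), with a median of 0.76. The claudins Cldn1 and Cldn4, which seal the space between epithelial cells, rose by 1.79 and 1.78, the scaffold Tjp3 by 1.80 and occludin (Ocln) by 1.74. The gene that fell was Cldn6, a claudin of embryonic epithelia, at 7.93, 14.6 and 9.72 FPKM at E14.5 and 1.97, 4.05 and 2.84 FPKM at E16.5 (log2 fold change −1.69). Gja1, the connexin with the highest level, was at 214, 218 and 218 FPKM at E14.5 and 189.8, 174 and 177 FPKM at E16.5, so that the E16.5 samples were slightly lower, with a log2 fold change of −0.10 that was not called.

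Genes of the corneal surface and its soluble enzymes rose in 14 of 20 and fell in 2, with a median of 1.74 that became 2.49 without E14.5 replicate 1. Aqp3, a water and glycerol channel of the epithelium, was at 31.1, 1.32 and 2.88 FPKM at E14.5 and 197, 129 and 142 FPKM at E16.5 (log2 fold change 3.90 ± 0.77 (SE), adjusted p = 0.00361). Serpinb5, a serpin of epithelial cells, rose by 4.02, S100a14 by 3.76, the uroplakin Upk1b by 3.03 and the membrane mucins Muc4, Muc15 and Muc20 by 2.58, 3.61 and 3.27. Aldh3a1, an aldehyde dehydrogenase so abundant in the adult cornea that it is called a corneal crystallin, was at 24.1, 2.51 and 5.58 FPKM at E14.5 and 58.3, 61.0 and 59.6 FPKM at E16.5. It rose in all E16.5 samples, and E14.5 replicate 1 was the highest of its stage (log2 fold change 2.64 ± 0.54 (SE), adjusted p = 0.00444). Aldh1a1, another corneal crystallin, moved the other way, at 6.53, 21.6 and 16.6 FPKM at E14.5 and 2.08, 1.72 and 2.41 FPKM at E16.5 (log2 fold change −2.69 ± 0.75 (SE), adjusted p = 0.0181). That call was lost without E14.5 replicate 2 or any E16.5 sample (adjusted p from 0.052 to 0.0635). The siderophore-binding protein Lcn2 fell by 2.16, a call lost without E16.5 replicate 1 or 3 (adjusted p = 0.0535 and 0.0544); it is also a neutrophil granule protein, and the neutrophil list fell beside it.

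Collagens of the stroma rose in 17 of 20 tested genes and fell in none, with or without E14.5 replicate 1, with a median of 1.66. Col1a1, the main chain of the stromal fibril at chr11:94936224-94953042, was at 1548, 604 and 1271 FPKM at E14.5 and 3522, 5029 and 4431 FPKM at E16.5. Every E16.5 sample was above every E14.5 sample (log2 fold change 2.08 ± 0.35 (SE), adjusted p = 0.00171), and at E16.5 it took between 1.671% and 2.385% of all counts, the largest share of any gene in those libraries. Its partner Col1a2 rose by 1.83. Col5a1 and Col5a2, which limit fibril width, rose by 1.44 and 1.73, and Col3a1 was at 511, 528 and 738 FPKM at E14.5 and 1169, 1707 and 1497 FPKM at E16.5 (log2 fold change 1.46). The beaded-filament chains Col6a1, Col6a2 and Col6a3 rose by 1.66, 1.66 and 1.52. Collagens that sit on the fibril surface rose as well, among them Col14a1 at 186, 71.1 and 92.3 FPKM at E14.5 and 399.5, 558 and 479 FPKM at E16.5 (log2 fold change 2.21). Col9a1 and Col9a3 had the largest changes of the list (2.54 and 2.53). Col2a1, Col11a2 and Col27a1 were not called, with log2 fold changes of 0.68, 0.64 and 0.71.

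Enzymes and chaperones of collagen making moved less than the collagens. Of 33 tested, 9 rose and none fell (12 without E14.5 replicate 1), with a median of 0.71. The prolyl hydroxylase P3h2 rose by 1.99, the procollagen N-proteinase Adamts2 by 1.53, the lysyl hydroxylase Plod1 by 1.42 and Creb3l1, a transcription factor of the secretory load in collagen-making cells, by 1.38. Serpinh1, the collagen chaperone and the most abundant of the list, had a log2 fold change of 0.77, and the crosslinking enzyme Lox one of 0.88.

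The small leucine-rich proteoglycans bind fibrils, and some of them carry the keratan sulfate that spaces the fibrils. With the enzymes of that sugar chain, 7 of 22 tested genes rose and 1 fell, with a median of 0.76. The rises numbered 10 without E14.5 replicate 1 and 4 without E14.5 replicate 2. Keratocan (Kera), the proteoglycan most specific to keratocytes, lies at chr10:97606962-97613688 and was at 803, 83.1 and 151 FPKM at E14.5 and 1244, 1170 and 1231 FPKM at E16.5. Replicate 1 lay between the stages, well above replicates 2 and 3, and the stages did not overlap (log2 fold change 1.98 ± 0.63 (SE), adjusted p = 0.0326). Without it the log2 fold change was 3.52, while leaving out any other cornea sample ended the call (adjusted p from 0.0535 to 0.101). The same edgeR test on the cornea samples alone also ended the call (adjusted p = 0.0728). Decorin (Dcn) was at 1445, 507 and 572 FPKM at E14.5 and 1734, 1929 and 1840 FPKM at E16.5 (log2 fold change 1.29). Lumican (Lum), given above, did not pass with a log2 fold change of 0.82, and had one of 1.19 without replicate 1 (adjusted p = 1.45e-06). Aspn, a proteoglycan of connective tissue, rose by 2.15, and B3gnt7, which extends keratan sulfate, by 1.17. The sulfotransferase Chst1, which adds sulfate to keratan chains, fell, from 7.28, 12.0 and 11.9 to 1.73, 3.93 and 4.17 FPKM (log2 fold change −1.5). The sulfotransferases Chst5 (0.98) and Chst2 (−0.69) were not called.

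Among 18 keratocyte genes 5 rose and 1 fell (7 and 3 without E14.5 replicate 1). The rises numbered 2 without E14.5 replicate 2, and 3 without E14.5 replicate 3 or with library totals. Those with large rises were Aldh3a1 and Kera, which other lists hold too, and Thbs2, an anti-angiogenic matrix protein, at 52.2, 27.1 and 36.9 FPKM at E14.5 and 121, 156 and 146 FPKM at E16.5 (log2 fold change 2.03 ± 0.22 (SE), adjusted p = 3.51e-04). The water channel Aqp1, found in keratocytes and corneal endothelium, rose by 1.12, and the collagen-degrading protease Ctsk by 1.05.

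The matrix through which crest cells migrate is rich in hyaluronan, versican and tenascin. Genes of provisional matrix and of matricellular proteins moved in both directions, with a median of −0.01. Of 34 tested, 7 rose (20.6%) and 5 fell (14.7%), against 6.26% and 5.47% of all tested genes. Sparc, a collagen-binding matricellular protein at chr11:55394159-55420080, was at 828, 412 and 601 FPKM at E14.5 and 1643, 1957 and 1951 FPKM at E16.5 (log2 fold change 1.75 ± 0.23 (SE), adjusted p = 7.08e-04). Papln, a proteoglycan-like ADAMTS relative, was at 8.09, 0.64 and 1.17 FPKM at E14.5 and 82.5, 52.0 and 55.1 FPKM at E16.5 (log2 fold change 4.43), and thrombospondin 4 (Thbs4) at 16.6, 1.09 and 3.38 FPKM at E14.5 and 80.6, 95.0 and 94.5 FPKM at E16.5 (log2 fold change 3.85). Tgfbi, the gene mutated in several stromal dystrophies, rose by 2.41, the hyaluronan receptor Cd44 by 2.27 and fibronectin (Fn1) by 1.14. On the falling side were Ccn4 (log2 fold change −2.06), Emilin2 (−1.73), tenascin C, osteopontin (Spp1, −1.24) and Hapln1, the link protein that ties versican to hyaluronan (−1.73). Versican itself (Vcan) had a log2 fold change of −0.88, below the 2-fold limit although its adjusted p was 4.13e-04, and the hyaluronan synthase Has2 had one of 0.17.

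Genes of the corneal endothelium and of its basement membrane gave 3 rises and 3 falls among 26, with a median of 0.03. These shares of 11.5% each compare with 6.26% and 5.47% of all tested genes. There were 4 rises and 5 falls without E14.5 replicate 1, and 1 rise without E14.5 replicate 2. Car12, a carbonic anhydrase, rose by 1.58, Col4a4 by 1.39 and Aqp1 as above. Car2, another carbonic anhydrase, and N-cadherin (Cdh2), the cadherin of corneal endothelial junctions, fell, with log2 fold changes of −1.34 and −1.34, as did Foxc2, given below with the crest factors. Slc4a11, an ion transporter of the endothelial pump, was at 1.70, 0.46 and 0.73 FPKM at E14.5 and 1.35, 1.69 and 2.31 FPKM at E16.5 (log2 fold change 1.05, adjusted p = 0.0832), and Col8a2 had a log2 fold change of −0.13.

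**Figure D4:**
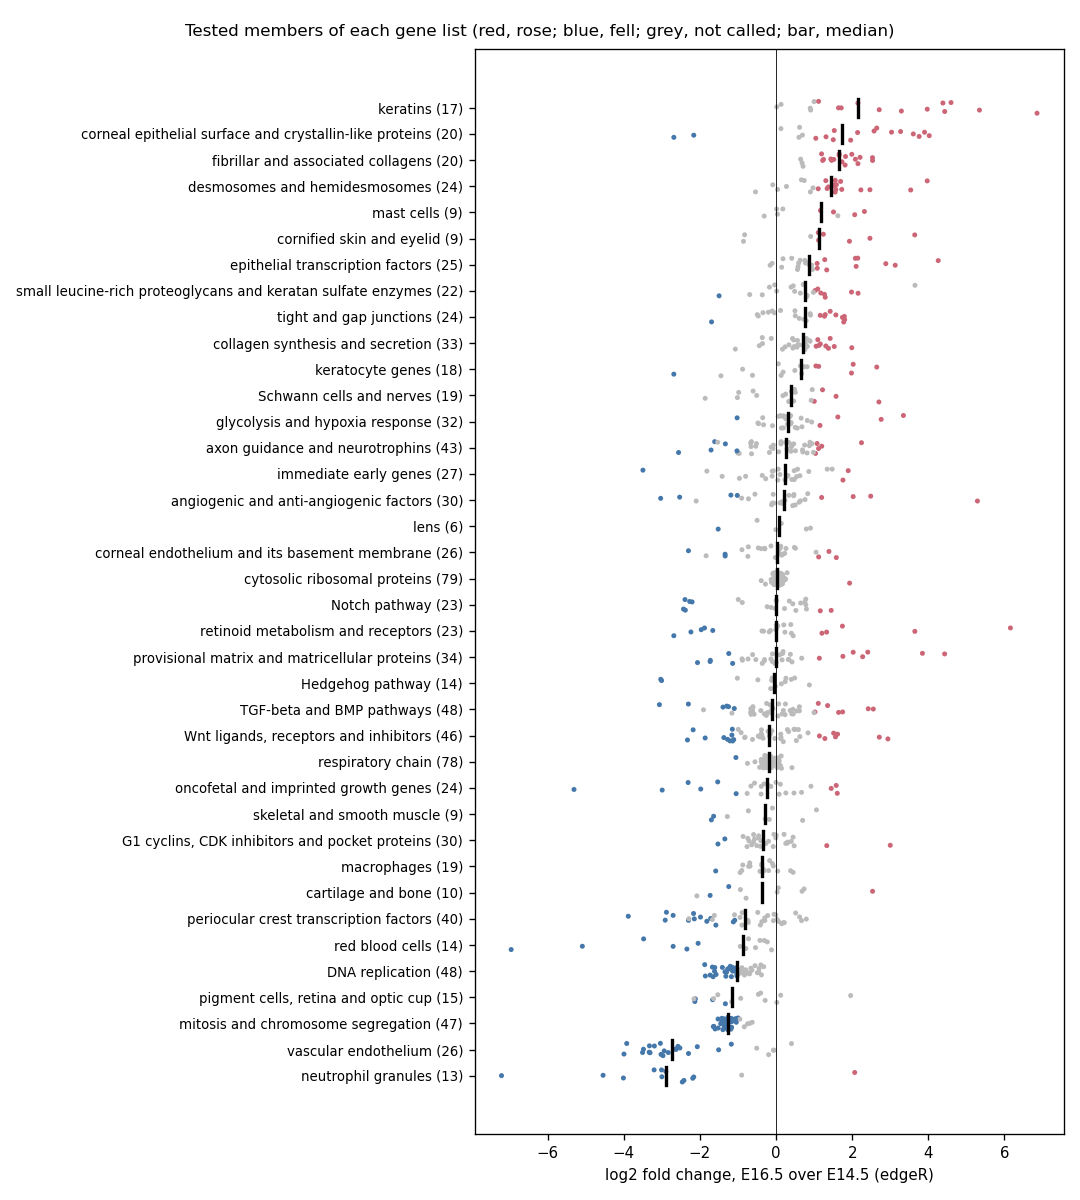
Log2 fold change of E16.5 over E14.5 (x axis) for each tested member of the 38 gene lists, ordered by the list's median (black bar), with the number of tested members in parentheses; red points rose, blue points fell and grey points were not called. Medians run from −2.90 for neutrophil granules and −2.74 for vascular endothelium to 1.66 for fibrillar collagens and 2.15 for keratins.

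Genes of cell division fell. Of 48 tested genes of DNA replication, 26 fell (54.2%, against 5.47% of all tested genes) and none rose (31 without E14.5 replicate 1), with a median of −1.03, and of 47 genes of mitosis and chromosome segregation 42 fell and none rose, with a median of −1.26. All 48 and all 47 fitted values were below 0. Cdc6, which loads the replicative helicase, was at 4.42, 7.62 and 5.61 FPKM at E14.5 and 1.43, 1.44 and 1.43 FPKM at E16.5 (log2 fold change −1.87 ± 0.19 (SE), adjusted p = 2.93e-04). The helicase subunit Mcm5 was at 29.6, 54.6 and 53.8 FPKM at E14.5 and 9.70, 13.3 and 15.7 FPKM at E16.5 (log2 fold change −1.67). In both, E14.5 replicate 1 was the lowest E14.5 sample and still above every E16.5 sample. The origin factors Orc1 and Mcm10 (log2 fold changes −1.86 and −1.73), the ribonucleotide reductase subunit Rrm2 (−1.62) and the sliding clamp Pcna (−1.02) fell as well. Top2a, the topoisomerase that untangles sister chromatids, was at 63.6, 98.8 and 89.9 FPKM at E14.5 and 23.1, 25.9 and 29.6 FPKM at E16.5 (log2 fold change −1.52 ± 0.16 (SE), adjusted p = 3.59e-04). The spindle checkpoint kinase Bub1 (−1.65), the kinesin Kif2c (−1.63) and the proliferation marker Mki67 (−1.45) fell by similar amounts on the log2 scale.

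Promoters of these genes were read from RefSeq (GRCm38.p6), from 250 bases before to 50 bases after each start site, because replication and mitosis genes are known to be controlled through short shared elements. E2F factors bind promoters of replication genes. Letters of that type, TTTCCCGC or TTTGGCGC on either strand, were found at 13 of 40 replication genes with a window (32.5%), at 4 of 38 mitosis genes and at 3.21% of the 11629 tested genes with a window. The cell cycle homology region (CHR) is an element of mitosis genes. Its letters, TTTGAA or TTCGAA on either strand, were found at 29 of 38 mitosis genes (76.3%), 10 of 40 replication genes (25%) and 16.6% of tested genes. The CCAAT box was found at 28 of 38 (73.7%), 25 of 40 (62.5%) and 42.8%. Over all genes that fell and have a window, the shares were 5.39% for the E2F-like letters, 26.4% for the CHR-like letters and 50.2% for CCAAT, and over all genes that rose they were 1%, 17.1% and 37.3%. Of all windows in the RefSeq table, 1.56%, 19.2% and 37.4% hold the respective letters. None of these motifs contains another, although ends may overlap, and a match is a description of the letters, not of binding. The stretches below are written 5′ to 3′ on the strand of the gene. They come from the 4 replication and 4 mitosis genes that fell most among those with such letters before a start site. Every window of a gene was read, so a start site may lie within the gene. The stretches of Kif2c and Cdc6 lie wholly inside the gene's span (chr4:117159633-117182624 and chr11:98907709-98923942), before such an internal start site. Capitals mark the E2F-like letters in the first 4 lines, and the CHR-like letters and any CCAAT box, read in either direction, in the others.
Cdc6, chr11:98907987-98908046, plus strand: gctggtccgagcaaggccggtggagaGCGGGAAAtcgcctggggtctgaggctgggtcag
Mcm5, chr8:75109334-75109393, plus strand: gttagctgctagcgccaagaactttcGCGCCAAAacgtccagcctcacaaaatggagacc
Pola1, chrX:93632260-93632319, minus strand: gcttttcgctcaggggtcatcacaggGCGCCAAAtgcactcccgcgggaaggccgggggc
Mcm7, chr5:138172015-138172074, minus strand: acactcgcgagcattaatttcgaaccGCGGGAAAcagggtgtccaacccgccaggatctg
Kif2c, chr4:117178856-117178945, minus strand: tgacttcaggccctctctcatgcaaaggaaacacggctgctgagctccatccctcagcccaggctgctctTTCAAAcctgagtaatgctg
Cenpm, chr15:82244400-82244489, minus strand: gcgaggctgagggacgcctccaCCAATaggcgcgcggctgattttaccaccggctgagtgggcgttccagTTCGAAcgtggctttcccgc
Bub1b, chr2:118597961-118598050, plus strand: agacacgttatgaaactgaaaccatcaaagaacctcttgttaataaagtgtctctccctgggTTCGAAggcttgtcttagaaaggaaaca
Top2a, chr11:99024193-99024282, minus strand: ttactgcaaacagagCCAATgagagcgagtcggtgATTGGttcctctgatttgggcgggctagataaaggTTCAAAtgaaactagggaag

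In lists that rose, none of 13 keratin and none of 14 fibrillar collagen genes with a window held E2F-like letters, and CHR-like letters were in 1 of 13 (7.69%) and 4 of 14 (28.6%).

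Regulators of the G1 phase moved little as a list, with 2 of 30 rising, 2 falling and a median of −0.34. These shares of 6.67% are near those of all tested genes (6.26% and 5.47%). Cdkn1a (p21), an inhibitor of cyclin-dependent kinases, was at 4.96, 0.89 and 2.11 FPKM at E14.5 and 26.6, 15.3 and 15.3 FPKM at E16.5, and the related inhibitor Cdkn1c (p57) at 191, 106 and 111 FPKM at E14.5 and 356, 274 and 289.6 FPKM at E16.5. Both were higher in all E16.5 samples, with log2 fold changes of 3.0 ± 0.43 (SE) and 1.33 ± 0.20. The genes that fell were the transcription factors E2f2 (−1.35) and Mycn (−1.53).

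Transcription factors of the periocular crest fell in 13 of 40 tested genes and rose in none, with a median of −0.82. Without E14.5 replicate 1, 16 fell, and without E14.5 replicate 2 or E16.5 replicate 1, 7 fell. Msx1, a homeobox factor of craniofacial mesenchyme at chr5:37820491-37824585, was at 4.56, 8.32 and 10.53 FPKM at E14.5 and 0.71, 1.29 and 0.76 FPKM at E16.5 (log2 fold change −2.91 ± 0.37 (SE), adjusted p = 6.23e-04). Alx4, an aristaless-like factor of the same mesenchyme, was at 5.18, 23.3 and 20.1 FPKM at E14.5 and 2.63, 4.75 and 4.92 FPKM at E16.5. Its replicate 1 at E14.5 lay next to the E16.5 samples and far below the other E14.5 samples (log2 fold change −1.82, and −2.24 without it). Foxc2, which acts in the anterior segment (−2.30), Foxf2 (−2.15), Eya1 (−1.99), Eya4 (−2.71) and Pitx1 (−2.17) also fell. Tfap2b, needed for the anterior segment, had a log2 fold change of −0.73 and was not called. Twist1 had −0.07 and Twist2, the most abundant of the list, 0.62. In the E10.5 pNC the mean levels of Msx1, Alx4 and Foxc2 were 58.8, 66.0 and 30.4 FPKM.

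Genes of embryonic growth gave 3 rises (12.5%) and 6 falls (25%) among 24, against 6.26% and 5.47% of all tested genes. With the cornea samples alone there were 3 falls. Igf1, a growth factor at chr10:87858265-87937047, was at 9.61, 28.4 and 24.4 FPKM at E14.5 and 2.59, 3.63 and 5.17 FPKM at E16.5 (log2 fold change −2.31 ± 0.36 (SE), adjusted p = 0.00128). The chromatin protein Hmga2, a mark of embryonic cells, fell by 1.98, and Sox11 (−1.53) and Peg10 (−1.05) fell too. Lin28a, which blocks let-7 processing, had between 2 and 7 expected counts in the E14.5 samples and 0 in the E16.5 samples (adjusted p = 0.00669). The imprinted genes Dlk1, Meg3 and Zim1 rose by 1.45, 1.61 and 1.58, while H19, the most abundant of the list, had a log2 fold change of 0.47.

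Retinoic acid from the epithelium and the optic cup acts on the periocular mesenchyme. Of 23 tested genes of retinoid handling 5 rose and 5 fell (21.7% each, against 6.26% and 5.47% of all tested genes), with a median of 0.01. The counts were the same without E14.5 replicate 1, but 3 fell without E14.5 replicate 2 or any E16.5 sample, and 3 rose without E14.5 replicate 3. Stra6, the receptor that takes up retinol, was at 19.03, 49.0 and 62.5 FPKM at E14.5 and 9.67, 12.2 and 14.7 FPKM at E16.5 (log2 fold change −1.66 ± 0.36 (SE), adjusted p = 0.00538). The retinaldehyde dehydrogenases Aldh1a1, given above, and Aldh1a2 (−2.24) fell. So did the receptor Rarb, itself a retinoic acid target (−1.88), and the degrading enzyme Cyp26b1 (−1.97). The rising genes were Adh1, a retinol-oxidizing dehydrogenase, at 14.3, 1.79 and 2.44 FPKM at E14.5 and 83.9, 59.1 and 63.6 FPKM at E16.5 (log2 fold change 3.65 ± 0.58 (SE), adjusted p = 0.0022), Adh7 (1.74), the binding proteins Crabp1 (1.33) and Fabp5 (1.21), and Rbp2. Rbp2, a cellular retinol-binding protein, was at 0.18, 0 and 0 FPKM at E14.5 and at 7.44, 4.38 and 3.66 FPKM at E16.5 (adjusted p = 3.88e-04). The pigment cell and retina list fell beside these genes, and its part in their falls was not tested.

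Gli1, the transcription factor that reports Hedgehog signalling, at chr10:127329882-127341579, was at 3.12, 16.3 and 8.60 FPKM at E14.5 and 0.25, 1.51 and 1.28 FPKM at E16.5 (log2 fold change −3.03 ± 0.59 (SE), adjusted p = 0.00353). Of 14 genes tested in that pathway 2 fell (14.3%, against 5.47% of all tested genes) and none rose. Without E14.5 replicate 1 there were 2 falls and 1 rise. The receptor Ptch1 had a log2 fold change of −0.48.

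In the Wnt pathway 7 of 46 genes rose (15.2%, against 6.26% of all tested genes) and 10 fell (21.7%, against 5.47%). The falls numbered 12 without E14.5 replicate 1, 6 without E14.5 replicate 2 and 4 without E14.5 replicate 3. Among the ligands, Wnt16, Wnt10b, Wnt11, Wnt5a and Wnt10a rose by 2.94, 2.71, 1.62, 1.51 and 1.14, and Wnt2b (−1.16), Wnt9b (−1.11) and Wnt7a (−2.18) fell. Of the receptors Fzd6 rose (1.56) and Fzd1 fell (−1.21). Secreted inhibitors divided too, with a rise of Sfrp1 (1.28) and falls of Wif1 (−1.86) and Frzb (−1.28). The R-spondins, which enhance Wnt signals, fell in the cases of Rspo2 (−1.37) and Rspo4 (−2.33). Target genes were not uniform, since Tcf7 (−1.14) and Nkd2 (−1.15) fell and Axin2 had a log2 fold change of 0.12. Dkk2, an inhibitor that keeps the corneal surface from becoming skin and the most abundant gene of this list, was at 238, 290.0 and 294 FPKM at E14.5 and 266, 331 and 306 FPKM at E16.5 (log2 fold change 0.30).

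Of 48 genes of the TGFβ and BMP pathways 7 rose (14.6%, against 6.26% of all tested genes) and 6 fell (12.5%, against 5.47%). Without E14.5 replicate 1, 8 rose and 7 fell. Tgfb2, the ligand required for the corneal stroma and endothelium, was at 8.76, 40.4 and 40.0 FPKM at E14.5 and 8.69, 10.4 and 11.2 FPKM at E16.5. E14.5 replicate 1 fell within the range of the E16.5 samples, and the log2 fold change of −1.40 became −1.83 without it. The activin and BMP antagonist Fst fell by 2.30 and the BMP target Id3 fell by 1.25. Ltbp4, which stores latent TGFβ in the matrix, rose by 2.55, the BMP modulator Bmper by 1.75, and Bmp3 by 1.64.

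Notch pathway genes gave 2 rises (8.7%) and 5 falls (21.7%) among 23, against 6.26% and 5.47% of all tested genes. Without E14.5 replicate 1 there were 4 rises and 6 falls. Notch1, which acts in the epithelium, rose by 1.16, and the Notch ligand relative Dlk1 as above. The falls were Dll4 (−2.21), Notch4 (−2.39), Hey1 (−2.38), Heyl (−2.27) and Mfng (−2.43). Dll4 and Notch4 are known from vascular endothelium, whose markers fell in the same samples, and the part of those cells in the Notch result was not tested.

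Vascular endothelial genes fell in 21 of 26 and rose in none, with and without E14.5 replicate 1, with a median of −2.74. Pecam1, the platelet and endothelial adhesion molecule, was at 6.14, 11.5 and 10.3 FPKM at E14.5 and 0.32, 1.35 and 0.81 FPKM at E16.5 (log2 fold change −3.33 ± 0.38 (SE), adjusted p = 4.52e-04). Cdh5, the cadherin of vascular junctions, was at 8.23, 16.7 and 15.8 FPKM at E14.5 and 0.17, 1.85 and 1.56 FPKM at E16.5 (log2 fold change −3.33). Both were low but present in all 3 E16.5 samples. The summed level of the list was between 141.5 and 217.8 FPKM at E14.5 and between 63.02 and 86.01 FPKM at E16.5. Part of the sum at E16.5 came from Kdr, a VEGF receptor, which was at 21.8, 30.3 and 38.9 FPKM at E14.5 and 21.7, 29.3 and 27.5 FPKM at E16.5 (log2 fold change −0.05). Lyve1, Eng, Ramp2 and Ecscr were also not called (−0.07, −0.19, −0.51 and 0.41).

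Angiogenic and anti-angiogenic factors, which set the border between vessels and the clear cornea, gave 4 rises and 4 falls among 30. These shares of 13.3% each compare with 6.26% and 5.47% of all tested genes. Without E14.5 replicate 1 there were 6 rises and 5 falls. Cxcl12, a chemokine that draws vessels, axons and crest cells, at chr6:117168535-117181368, was at 15.9, 54.6 and 52.8 FPKM at E14.5 and 4.58, 6.67 and 7.45 FPKM at E16.5 (log2 fold change −2.53 ± 0.40 (SE), adjusted p = 0.00137). The VEGF receptor and decoy Flt1, also an endothelial gene (−3.03), the Tie2 ligand Angpt2 (−1.19) and Col18a1, the source of endostatin (−1.02), fell. Vegfa had a log2 fold change of 0.50. Rising were Hif3a, a hypoxia-inducible factor that dampens the response to hypoxia, at 10.54, 6.80 and 6.99 FPKM at E14.5 and 47.3, 36.4 and 38.2 FPKM at E16.5 (log2 fold change 2.49 ± 0.18 (SE), adjusted p = 1.38e-04), the anti-angiogenic serpin PEDF (Serpinf1) by 1.20, and Thbs2 as above. The protease inhibitor Spink5 was the last of the rises (adjusted p = 0.00102), at 0.05, 0 and 0 FPKM at E14.5 and 0.93, 0.54 and 0.49 FPKM at E16.5.

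For guidance of the ingrowing nerves, 5 of 43 genes rose and 5 fell (11.6% each, against 6.26% and 5.47% of all tested genes), with a median of 0.25. Without E14.5 replicate 1, 9 rose and 7 fell, and 2 rose with library totals or without E14.5 replicate 2. L1cam, an adhesion molecule of axons, rose by 2.24, and the semaphorins Sema4d, Sema4a and Sema3c by 1.20, 1.12 and 1.08, as did the neurotrophic factor Nrtn (1.04). Sema3e (−1.71), Sema7a (−2.56), the semaphorin receptor Plxna4 (−1.61), the neurotrophin Bdnf (−1.33) and the ephrin Efnb3 (−1.03) fell. Genes of Schwann cells and axons rose in 4 of 19 (21.1%, against 6.26% of all tested genes) and fell in none (5 and 2 without E14.5 replicate 1). The neuronal members were not called: Tubb3 (−1.86), Stmn2 (−1.02), Elavl4 (−0.98), Nefm (0.25), Gap43 (0.33), Elavl3 (0.40), Nefl (0.40) and Prph (0.92). Mal, a myelin proteolipid that epithelia also use, was at 17.3, 5.11 and 5 FPKM at E14.5 and 72.9, 40.0 and 46.4 FPKM at E16.5 (log2 fold change 2.70). The neuregulin receptor Erbb3 rose by 1.22, the artemin receptor Gfra3 by 1.58 and the myelin gene Mbp by 1.0, and the Schwann cell factor Sox10 was at 2.43, 5.76 and 3.33 FPKM at E14.5 and 1.89, 3.04 and 2.28 FPKM at E16.5 (log2 fold change −0.51).

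Genes of blood cells differed by cell type. Among globins, the embryonic beta-like chain Hbb-y, at chr7:103851754-103853207, was at 117, 550.4 and 538 FPKM at E14.5 and 1.74, 4.01 and 2.85 FPKM at E16.5 (log2 fold change −6.96 ± 0.65 (SE), adjusted p = 2.45e-04), and the embryonic alpha-like chain Hba-x fell by 5.09. The adult beta chain Hbb-bs was at 1460, 437 and 601 FPKM at E14.5 and 698, 910.5 and 438 FPKM at E16.5. Its stages overlapped, with a log2 fold change of −0.12. Globins are close copies of each other, so reads may be split between them. Over the red blood cell list, 6 of 14 genes fell and none rose. Neutrophil granule genes fell in 11 of 13 tested. S100a9, an abundant neutrophil protein, was at 136, 99.0 and 57.5 FPKM at E14.5 and 6.48, 13.8 and 14.47 FPKM at E16.5 (log2 fold change −2.90 ± 0.37 (SE), adjusted p = 6.29e-04). Myeloperoxidase (Mpo), a marker of immature neutrophils, had 31, 374 and 647 expected counts at E14.5 and 0, 6 and 0 at E16.5 (adjusted p = 0.00196), and the granule protein Prg2, known from eosinophils, went from 13.6, 27.3 and 11.4 to 0.28, 2.22 and 0 FPKM. In these genes E14.5 replicate 1 did not side with E16.5 as a rule, being the highest sample for S100a9. The gene of this list that rose was Hdc, which makes histamine and is also a mast cell gene. Mast cell genes rose in 4 of 9 and fell in none, but only 2 rose with library totals, DESeq2 or the cornea samples alone, or without any sample other than E14.5 replicate 1. Carboxypeptidase A3 (Cpa3) was at 43.7, 13.4 and 14.1 FPKM at E14.5 and 44.7, 48.2 and 49.4 FPKM at E16.5, so that E14.5 replicate 1 lay close to the E16.5 samples (log2 fold change 1.17). Its call was lost when any cornea sample other than E14.5 replicate 1 was left out (adjusted p from 0.0562 to 0.09). The same edgeR test on the cornea samples alone also ended the call (adjusted p = 0.0624). The chymases Mcpt4 and Cma1 rose by 2.32 and 1.51. Of 19 macrophage genes, Lyz2 fell (−1.59) and the others were not called.

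Markers of tissues next to the cornea were measured to show what the pieces held. Pigment cell and retina genes fell in 4 of 15 (7 without E14.5 replicate 1), with a summed level of 71.47 to 125.7 FPKM at E14.5 and 35.19 to 38.43 FPKM at E16.5. Dct (−2.12) and Pmel (−1.67), genes of melanocytes and pigment epithelium, fell with Mitf (−1.33) and Slc45a2 (−2.13). Of smooth and skeletal muscle genes 2 of 9 fell, Tagln (−1.64) and Tnnt1 (−1.70). The muscle regulators Myod1, Myog and Myf5 were listed at 0 in all 6 samples. Of 24 lens genes 6 were tested and 1 fell, Bfsp2 (−1.52); the lens crystallin Cryaa was at 1.94, 0.77 and 1.62 FPKM at E14.5 and 1.56, 1.35 and 0.96 FPKM at E16.5. Genes of cornified skin rose in 6 of 9. Krtdap, a differentiation gene of epidermis, was at 11.2, 0.27 and 0.26 FPKM at E14.5 and 54.7, 37.7 and 39.1 FPKM at E16.5 (log2 fold change 3.64 ± 0.72 (SE), adjusted p = 0.00379), and the barrier gene Sbsn rose by 1.11. The cornified envelope genes that define skin were low, with loricrin (Lor) at 19.03, 5.71 and 4.44 FPKM at E14.5 and 4.60, 5.56 and 4.15 FPKM at E16.5 (log2 fold change −0.86) and involucrin (Ivl) at 0.19, 0.30 and 0 and 0.31, 0 and 0 FPKM. Skin genes moved with the keratins, and their part in that result was not tested. Of 10 cartilage and bone genes 1 rose and 2 fell, all 3 of them matrix genes already named (Col9a1, Hapln1 and Spp1).

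Immediate early genes, which are switched on within minutes of a stimulus, were uneven among the E14.5 samples. Their summed level was 343.5, 617.2 and 1563 FPKM at E14.5 and 975.3, 868.5 and 786.9 FPKM at E16.5. Fos was at 5.63, 72.9 and 316 FPKM at E14.5 and 167, 147 and 125 FPKM at E16.5 (log2 fold change 0.29), and Egr1 at 6.24, 113 and 332 FPKM at E14.5 and 74.0, 90.7 and 69.8 FPKM at E16.5. For both genes E14.5 replicate 1 was the lowest and E14.5 replicate 3 the highest of the 6 samples. Of 27 such genes Maff and Fosl2 rose (1.90 and 1.76) and Egr2 fell (−3.50), shares of 7.41% and 3.7% that are near those of all tested genes (6.26% and 5.47%).

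Energy genes changed in few places. Of 32 genes of glycolysis and the hypoxia response 4 rose (12.5%, against 6.26% of all tested genes) and 1 fell (3.12%, against 5.47%). Ndrg1, a hypoxia-responsive gene also tied to differentiation, was at 6.72, 1.40 and 1.92 FPKM at E14.5 and 36.5, 25.7 and 28.9 FPKM at E16.5 (log2 fold change 3.35 ± 0.42 (SE), adjusted p = 5.95e-04). The oxygen sensor Egln3 rose by 2.76, the aldolase Aldoc by 1.62 and the glucose carrier Slc2a1, which is found in epithelia, by 1.15; the phosphofructokinase Pfkp fell by 1.02. Gapdh had a log2 fold change of −0.46. Ribosomal protein genes gave 1 rise among 79, Rpl39l (1.93), and a median of 0.03, and respiratory chain genes gave 1 fall among 78, the cytochrome oxidase isoform Cox4i2 (−1.06), and a median of −0.19.

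Some genes with very large changes stood outside these groups. Ndufa4l2, a mitochondrial protein induced by hypoxia, was at 8.15, 0.59 and 0.93 FPKM at E14.5 and 146, 91.9 and 85.9 FPKM at E16.5 (log2 fold change 5.23 ± 0.55 (SE), adjusted p = 3.51e-04). Zbtb16 (PLZF), a zinc finger repressor, was at 0.54, 0.08 and 0.18 FPKM at E14.5 and 8.21, 5.62 and 5.34 FPKM at E16.5 (log2 fold change 4.71). Rtl3, a gene derived from a retrotransposon, was at 0.19, 0.22 and 0.15 FPKM at E14.5 and 6.80, 4.59 and 4.87 FPKM at E16.5 (log2 fold change 4.98), and had nearly equal values within each stage. The epithelial serpin Serpinb11 was at 2.02, 0 and 0 FPKM at E14.5 and 23.2, 15.6 and 12.3 FPKM at E16.5 (adjusted p = 0.00115). On the falling side, Fndc3c1 was at 1.05, 9.00 and 5.68 FPKM at E14.5 and 0.28, 0.58 and 0.46 FPKM at E16.5 (log2 fold change −3.40), and Iqschfp at 2.39, 11.1 and 11.2 FPKM at E14.5 and 0.70, 1.12 and 0.19 FPKM at E16.5 (log2 fold change −3.43).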

How the data were processed

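RNA-seq of 3 E14.5 and 3 E16.5 mouse cornea samples was compared, with 3 E10.5 pNC samples kept in the model for the shared estimate of spread. The authors filtered reads, mapped them with Bowtie2 and HISAT to reference genes and GRCm38, and quantified them with RSEM, and the submitters' notes give no versions. Whether strand was used in counting is not given in the sources used here, so reads of overlapping genes cannot be told apart, and copies such as globins may share reads. Each sample's file, as deposited, lists for each gene an expected count and a level in FPKM, and a gene missing from a file was taken as 0. Of 19369 gene IDs, 19312 matched a RefSeq symbol. Library totals of 8745161 to 8938315 expected counts limit precision for genes at low counts. Samples are labelled as replicates and described as pools of separate tissue, and p-values measure the spread between those pools.

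Expected counts were rounded, filtered with filterByExpr, scaled by TMM and fitted with edgeR 4.0.16 (R 4.3.3) by the quasi-likelihood test with stage as the only term, over all 9 samples. Of the 14771 genes tested, 26 were at 0 in all 6 cornea samples. Calls needed a Benjamini-Hochberg adjusted p under 0.05 with a log2 fold change of 1 or more in size; the SE is the fold change divided by the square root of F. Printed adjusted p-values are from this test. Those given for a sample left out are from the same test on the remaining samples. FPKM values are printed as deposited. An exact permutation test of 3 against 3 samples cannot go below p = 0.1 and was not used. The code was checked on simulated counts. Alternatives were library totals, DESeq2 size factors, DESeq2 1.42.0, no filter, cornea samples only, a replicate block, no fold minimum, limma 3.58.1 on log2(FPKM + 1) and log2(FPKM + 0.1), a NOISeq-type rule at a probability of 0.8, and each sample left out.

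The 38 gene lists and the comparison were chosen with earlier results of these data known, so the lists are descriptions and no list was tested as a set. Named genes were the 10 largest rises and 10 largest falls with a mean of at least 5 FPKM in the higher stage and no overlap between stages, up to 2 in each direction and the most abundant member of each list, and other list members with their values. Promoter windows and gene positions are from RefSeq (GRCm38.p6). Python 3.11.15 was used for tables and figures. Some list members are not reported here.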

Additional observations from a re-analysis of the deposited data

How the results depend on the processing

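Against 924 rising and 808 falling genes, limma on log2(FPKM + 1) gave 517 and 511, dropping the fold minimum gave 2579 and 2585, and the NOISeq-type rule gave 381 and 401; the larger pseudocount shrinks the change of low genes by construction. Limma on log2(FPKM + 0.1) gave 696 and 947, so that rising genes made up 42.4% of calls. Leaving out each cornea sample in turn gave 690 to 1307 rising and 632 to 1056 falling genes, the highest of both without E14.5 replicate 1 and the lowest without E14.5 replicate 2. An alternative chosen after seeing the data, the cornea samples alone without E14.5 replicate 1, gave 1330 and 989. Replicate numbers are shared by the stages, but deviations of same-numbered samples correlated at 0.25, 0.12 and 0.0579, so they were not taken as pairs; the replicate block gave 937 and 785 and ended the call of Efnb3 alone among 131 named genes.

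Among the lists, library totals left 3 rising keratocyte genes, 2 rising axon guidance genes and 2 rising mast cell genes, DESeq2 and the cornea-only fit also left 2 mast cell genes, and the cornea-only fit left 3 falling genes of embryonic growth. With samples left out in turn, rising genes ranged from 4 to 10 for the proteoglycans (lowest without E14.5 replicate 2), 2 to 7 for keratocyte genes (2 without E14.5 replicate 2, 3 without E14.5 replicate 3), 1 to 4 for corneal endothelium (1 without E14.5 replicate 2), 3 to 5 for retinoid genes (3 without E14.5 replicate 3), 2 to 9 for axon guidance (2 without E14.5 replicate 2) and 2 to 5 for mast cells (2 without any sample other than E14.5 replicate 1). Falling genes ranged from 2 to 5 for corneal endothelium (5 without E14.5 replicate 1), 7 to 16 for crest factors (7 without E14.5 replicate 2 or E16.5 replicate 1), 3 to 5 for retinoid genes (3 without E14.5 replicate 2 or any E16.5 sample), 4 to 12 for Wnt genes (4 without E14.5 replicate 3, 6 without E14.5 replicate 2) and 3 to 7 for pigment genes (7 without E14.5 replicate 1). The cause was not tested.

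Of the named genes, 5 lost their call with library totals, 2 with DESeq2, 2 in the cornea-only fit and 5 to 10 when a sample other than E14.5 replicate 1 was left out. Those lost in the last case were, besides the genes given in the report, mostly at the 2-fold limit (Aqp1, Car2, Col18a1, Efnb3, Emp1, Notch1, Pcna, Pfkp and Spp1), with Crabp1 and Lcn2 at the limit of the adjusted p. DESeq2 gave no adjusted p for 7 called genes, Kera among them. Values near 0 that changed sign were Fstl1 (−0.003) and Rpl41 (−0.08) with library totals, and, with samples left out in turn, Fos (−0.27 to 2.08), Kdr (−0.25 to 0.19) and Rpl41 (−0.011 to 0.24). Genes with a few counts per library, such as Lin28a, have a level that is not well determined at this depth.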

Other observations

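In 4 genes every sample of a stage was listed at 0 while the other stage had a mean of at least 5 FPKM, and all are short or unnamed transcripts. Mir199a-1, the gene of a microRNA precursor, was listed at 13.4, 3.29 and 0 FPKM at E14.5 and at 0 at E16.5. Snord57, a small nucleolar RNA gene, was listed at 0, 12.4 and 8.16 FPKM at E14.5 and at 0 at E16.5. Mir5114 was listed at 16.6 FPKM in E14.5 replicate 1 and Gm7334 at 15.9 FPKM in E16.5 replicate 1, and both at 0 in the other cornea samples. Poly(A) selection keeps few such transcripts, and no fold change is given.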
